A study of Mus musculus with 12 samples.

Results

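The transglutaminase genes Tgm1, Tgm2, Tgm3, Tgm4, Tgm5 and Tgm6 were followed through a mouse embryonic stem cell experiment on LOXL2, a lysyl oxidase family member, and RA, read here as retinoic acid. They were chosen by symbol in the platform annotation, and all 6 were found among 22180 named genes, each by a single transcript cluster. The choice was made with their RA changes in view, since Tgm2 is known as a retinoic acid target and Tgm3 was lower with RA. The RA changes of these 6 genes are therefore given as a description without a test, and tests are confined to the comparisons of the hairpins. Total RNA was labelled with biotin and measured on Affymetrix whole-transcript arrays. The cells were E14, a mouse embryonic stem cell line, and every group had been transduced with a hairpin construct. The 4 groups of 3 arrays each were shLOXL2 (a hairpin against LOXL2) with RA at day 1, shLOXL2 without RA at day 0, shCT (a control hairpin) with RA at day 1, and shCT without RA at day 0. Cells without RA were taken only at day 0, which means that RA and a day of culture cannot be told apart. A single hairpin against LOXL2 is labelled, so the loss of LOXL2 and other effects of that hairpin cannot be told apart.

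Transglutaminases are calcium-dependent enzymes that join glutamine side chains of a protein to lysine side chains or to polyamines, which links proteins into stable networks. Tgm2 encodes the widely expressed tissue transglutaminase, which also binds GTP and acts in the extracellular matrix. Tgm1, Tgm3 and Tgm5 encode enzymes that build the cornified envelope of the epidermis and hair, Tgm4 encodes the prostate enzyme that clots rodent semen, and Tgm6 encodes an enzyme found in the nervous system. Transcription of Tgm2 through retinoic acid receptors is a textbook response in several cell types, and retinoids are known to repress transglutaminase 1 in cultured human keratinocytes.

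Facts of the whole series bear on what follows. Values are log2 signals, array medians lay between 4.58 and 4.68, and pairs of arrays correlated at 0.939 to 0.985. The precision is limited by the number of arrays. The labels do not state that replicate arrays are separate cultures, and the p-values reflect only array-to-array spread, possibly technical. A single axis held 49.4% of the variation within groups. On it 4 arrays were set apart by scores above 0.2 (replicate 1 of shLOXL2 in both RA states and replicate 3 of shCT in both RA states). The cut was applied only at this end of the axis. The largest score in size, -0.504, was that of replicate 1 of shCT without RA, which was kept. Replicate 3 of shLOXL2 without RA (-0.27) and replicate 2 of shLOXL2 with RA (-0.224) also passed 0.2 in size. Both clusters that cover Loxl2 are shared with a predicted gene, Gm21451. Their shLOXL2 signal averaged 60.0% and 65.0% of shCT (limma adjusted p over all clusters = 0.28 and 0.543), so the knockdown did not pass the threshold here. On the log2 scale these average differences were -0.74 ± 0.14 and -0.62 ± 0.16 (SE). The log2 difference was larger with RA (-0.91 and -1.08) than without RA (-0.57 and -0.16) in both clusters, a contrast that was not tested. All 10 embryonic stem cell markers measured, among them Pou5f1 and Nanog, had means above the array medians. All 9 primitive endoderm markers did as well, so a level above the median does not single out the labelled cell type. Of 9 surface ectoderm and keratinocyte markers, 6 had means below the array medians (Krt14, Krt15, Trp63, Tfap2a, Krtdap and Dsg3). The other 3, Grhl3, Col17a1 and Perp, lay above. Of 9 fibroblast markers, 5 lay below (Postn, Lum, Dcn, Twist2 and Fap). The other 4, Col1a1, Col1a2, Col3a1 and Thy1, lay above. By definition about as many clusters lie below an array's median as above it, so absence of these cells is not read from these counts.

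Promoter windows from RefSeq (build GRCm38.p6) matched 5 of the 6 genes, in 7 windows, and Tgm2 had no match. The 250 bases before a start site are printed 5′ to 3′ for Tgm3, which had the largest RA change of the 6, for Tgm1, which differed between the hairpins in every array, and for Tgm6, the next gene after Tgm3 on chromosome 2. They lie at chr2:130012090-130012339 on the plus strand for Tgm3, at chr14:55713493-55713742 on the minus strand for Tgm1 and at chr2:130112166-130112415 on the plus strand for Tgm6. Tgm1 and Tgm6 have a further window each, not printed here.
Tgm3: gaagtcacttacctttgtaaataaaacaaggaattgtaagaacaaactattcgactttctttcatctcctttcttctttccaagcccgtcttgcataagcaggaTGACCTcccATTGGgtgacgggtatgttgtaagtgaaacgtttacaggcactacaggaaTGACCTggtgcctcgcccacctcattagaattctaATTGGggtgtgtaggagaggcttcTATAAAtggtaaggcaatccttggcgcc
Tgm1: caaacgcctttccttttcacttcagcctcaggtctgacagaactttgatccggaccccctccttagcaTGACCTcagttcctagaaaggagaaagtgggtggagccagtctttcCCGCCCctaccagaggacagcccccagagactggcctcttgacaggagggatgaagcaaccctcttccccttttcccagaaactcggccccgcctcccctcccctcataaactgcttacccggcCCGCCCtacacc
Tgm6: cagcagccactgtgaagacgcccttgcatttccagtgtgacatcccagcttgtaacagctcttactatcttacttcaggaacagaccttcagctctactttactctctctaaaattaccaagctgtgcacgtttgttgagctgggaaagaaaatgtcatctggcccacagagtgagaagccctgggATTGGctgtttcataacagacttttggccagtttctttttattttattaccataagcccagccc
Capitals mark exact matches, on either strand, to any of the motifs searched, and no match overlaps another. The motifs were the TATA box TATAAA, the CCAAT box, the GC box GGGCGG, the octamer of the POU factors ATTTGCAT (in 1.6% of 32851 promoter windows) and the AP-1 site TGANTCA (6.75%). Nuclear receptor half-sites were searched as AGGTCA and as its variants, namely GGTTCA (8.85% of windows), then AGTTCA (11.8%), and last GGGTCA (11.6%). Each share counts windows with at least 1 match, on either strand and at any position. The Tgm3 window holds a TATA box whose first base lies at -28 from the start site, and 12.4% of windows hold a TATA box at any position. It also holds a pair of CCAAT boxes in the opposite orientation, at -137 and -52 (33.8% of windows have at least 1). A pair of AGGTCA half-sites lies in the opposite orientation, at -146 and -87 (14% of windows have at least 1). The Tgm1 window holds GC boxes at -136 and -12 (32.7% of windows have at least 1) and an AGGTCA half-site at -182, all in the opposite orientation. The Tgm6 window holds a CCAAT box in the opposite orientation at -64 and none of the other motifs. The further window of Tgm6 holds an AGGTCA half-site at -211 and that of Tgm1 a CCAAT box at -174 and a GGGTCA half-site at -78. These matches describe the letters of each window and were not tied to binding in these cells.

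Tgm3, the transglutaminase of the hair shaft and the upper epidermis, was lower with RA in both constructs. Its log2 signal was 4.96, 4.95 and 4.99 on the shLOXL2 arrays with RA, against 6.56, 7.16 and 7.13 on the shLOXL2 arrays without RA. On the shCT arrays it was 4.69, 4.75 and 4.52 with RA, against 6.58, 6.56 and 5.93 without RA. In each construct every array with RA lay below every array without RA, and the gap was several times the spread within groups. The change was -1.99 ± 0.19 (SE) on the log2 scale in shLOXL2, which left 25.2% of the signal without RA, and -1.71 ± 0.19 in shCT, which left 30.6%. With RA the signal came down to near the array medians. Of all 12 arrays, with and without RA, 11 lay above their median. Replicate 3 of shCT with RA lay below its own (4.52 against 4.68). No background level was set here, so any background in the remaining signal would understate the change. RNA was measured in bulk, so fewer cells with Tgm3 and less Tgm3 RNA per cell cannot be told apart. Markers of cell state moved with RA as well. Of 10 embryonic stem cell markers, 4 fell in shLOXL2 and 3 in shCT (limma adjusted p under 0.05). Over all genes 1.41% fell in shLOXL2 and 2.09% in shCT. Pou5f1 fell in both, while Nanog stood at -0.04 ± 0.23 in shLOXL2 and 0.21 ± 0.23 in shCT. The list means of the 10 markers were 8.78 to 8.93 in shLOXL2 with RA against 9.30 to 9.33 without RA. In shCT they were 8.79 to 8.91 with RA against 9.21 to 9.32 without RA. Of 9 primitive endoderm markers, 1 passed in each construct, against 3.46% of all genes in shLOXL2 and 4.25% in shCT. It was Gata6, which rose by 1.99 ± 0.24 in shLOXL2 and 1.27 ± 0.24 in shCT (adjusted p = 0.000334 and 0.00869). The list means of the 9 markers were 6.66 to 6.72 in shLOXL2 with RA against 6.15 to 6.23 without RA. In shCT they were 6.38 to 7.24 with RA against 6.01 to 7.16 without RA, where they overlapped. The part of either shift in the Tgm3 change was not tested.

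**Figure D1:**
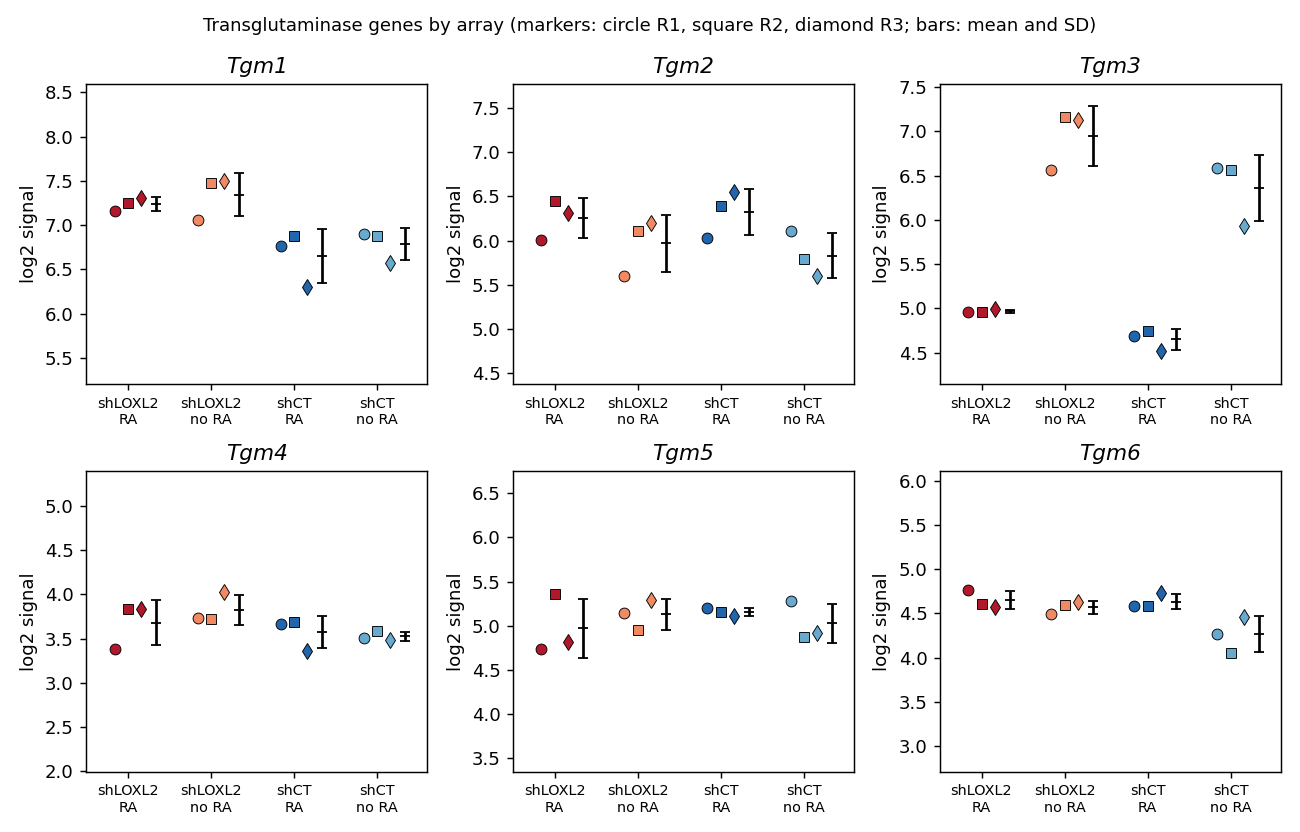
Log2 signal (y axis, 3.4 log2 units in every panel) of each transglutaminase gene on each of the 12 arrays, by construct and RA (x axis), with markers for the replicate number and a bar for the mean and SD of the 3 arrays. Tgm3 is the gene whose arrays with and without RA lie far apart in both constructs, and Tgm1 is the gene whose shLOXL2 arrays all lie above its shCT arrays.

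Tgm2, the tissue transglutaminase, had a higher mean with RA in both constructs, with arrays that overlapped. Its log2 signal was 6.01, 6.44 and 6.31 on the shLOXL2 arrays with RA, against 5.60, 6.11 and 6.20 on those without RA. The shCT arrays gave 6.03, 6.39 and 6.55 with RA, against 6.10, 5.79 and 5.60 without RA. In each construct the highest array without RA lay above the lowest array with RA. The differences were 0.28 ± 0.20 in shLOXL2 and 0.49 ± 0.20 in shCT on the log2 scale, that is 1.22 and 1.41 times the signal without RA. They moved with single arrays, and without replicate 1 of shLOXL2 without RA the difference in shLOXL2 was 0.10. Without the 4 arrays that stood apart it was 0.22 in shLOXL2 and 0.27 in shCT. Every array stood above its median for Tgm2.

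The RA changes of the other 4 genes were small beside that of Tgm3. Tgm1, the membrane-anchored transglutaminase of keratinocytes, differed by -0.10 ± 0.17 in shLOXL2 and -0.13 ± 0.17 in shCT, with overlapping arrays in both. Tgm6 lay at 4.76, 4.61 and 4.58 with RA against 4.49, 4.60 and 4.63 without RA in shLOXL2, where the arrays overlapped. In shCT it lay at 4.59, 4.58 and 4.73 with RA against 4.27, 4.06 and 4.46 without RA, where every array with RA was higher (0.37 ± 0.13). Tgm5 and Tgm4 showed overlapping arrays in both constructs. Tgm5, the epidermal enzyme, lay at 4.74, 5.36 and 4.82 with RA against 5.15, 4.95 and 5.29 without RA in shLOXL2, and at 5.20, 5.15 and 5.11 with RA against 5.28, 4.88 and 4.92 without RA in shCT. Its differences were -0.16 ± 0.17 in shLOXL2 and 0.13 ± 0.17 in shCT, of opposite sign and within their errors. Tgm4, the prostate enzyme, lay at 3.39, 3.83 and 3.83 with RA against 3.73, 3.72 and 4.03 without RA in shLOXL2, and at 3.67, 3.68 and 3.37 with RA against 3.51, 3.59 and 3.49 without RA in shCT. Its differences were -0.14 ± 0.15 in shLOXL2 and 0.05 ± 0.15 in shCT. Counted over all 6 genes, arrays with and without RA did not overlap for 1 gene in shLOXL2 (Tgm3) and for 2 genes in shCT (Tgm3 and Tgm6). Among all genes this held for 19.6% in shLOXL2 and 21.2% in shCT, and since the choice of the 6 genes used these changes nothing is read from the counts. Tgm4 lay below the median on all 12 arrays and Tgm6 on 8 of them, and how much of their signal was background was not tested.

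The hairpins were compared next. The reason given for the choice of genes did not name this comparison, though earlier results of these data were known. Tgm1 was the gene of the 6 that differed most between them. Its log2 signal was 7.16, 7.25 and 7.30 in shLOXL2 with RA, against 6.77, 6.88 and 6.30 in shCT with RA. Without RA it was 7.06, 7.47 and 7.50 in shLOXL2, against 6.90, 6.88 and 6.57 in shCT. All 6 shLOXL2 arrays lay above all 6 shCT arrays, which held for 1 of the 6 genes and for 0.221% of all genes. In either direction the share of all genes was 0.451%. Averaged over both RA states the difference was 0.57 ± 0.12, or 1.49 times the shCT signal. In the limma fit across all genes this had an unadjusted p of 0.000349, place 49 of 22180, and an adjusted p of 0.158, so Tgm1 did not pass the threshold of 0.05. Exact relabelling of the hairpins within RA states gave a two-sided p of 0.005 for Tgm1, the smallest that the 400 relabellings allow, and 1.53% of all genes reached it. Relabelling treats the 12 arrays as independent, whereas same-numbered arrays of a construct tended to deviate together. With construct and number as a random block the adjusted p of Tgm1 was 0.388. The size was alike in both RA states, 0.59 ± 0.17 with RA (adjusted p = 0.972) and 0.56 ± 0.17 without RA (adjusted p = 0.806).

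Tgm3 was also higher in shLOXL2, by 0.46 ± 0.14 on average (limma adjusted p = 0.394, unadjusted 0.00484, exact relabelling p = 0.015), and did not pass the threshold. With RA all 3 shLOXL2 arrays lay above all 3 shCT arrays and the difference was 0.32 ± 0.19. Without RA the arrays overlapped and the difference was 0.60 ± 0.19, which came to 0.38 without replicate 3 of shCT without RA. Tgm2 did not separate the hairpins, with an average difference of 0.03 ± 0.14 and a 95% interval from -0.27 to 0.33. Tgm5 stood at -0.04 ± 0.12 (95% interval -0.30 to 0.22). Tgm4 stood at 0.20 ± 0.11 and Tgm6 at 0.16 ± 0.09, and in both genes the 3 shLOXL2 arrays without RA lay above the 3 shCT arrays without RA. In all, 0 of the 6 genes passed the limma threshold on average (0.0541% of all genes did), with RA or without RA (0% of all genes in each). At an unadjusted p under 0.05 there were 2 on average (Tgm1 and Tgm3), against 6.72% of all genes, 1 with RA (Tgm1), against 4.96%, and 3 without RA (Tgm1, Tgm3 and Tgm6), against 4.68%. Arrays of the hairpins did not overlap for 2 of the 6 genes with RA, Tgm1 and Tgm3, and for 3 without RA, Tgm1, Tgm4 and Tgm6, all with shLOXL2 higher. Among all genes shLOXL2 was higher in this way for 6.61% with RA and 4.2% without RA. Counted in either direction, the arrays did not overlap for 12.5% of all genes with RA and 8.23% without RA.

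**Figure D2:**
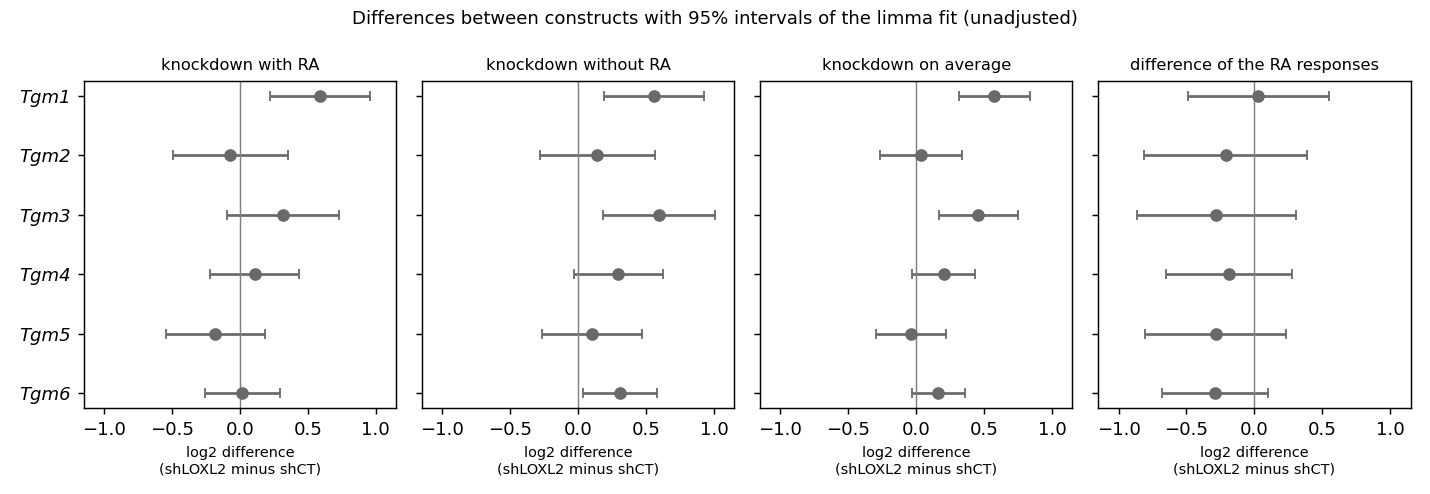
Log2 differences (x axis, shLOXL2 minus shCT) of the 6 genes (y axis) with RA, without RA, on average and between the RA responses, as points with unadjusted 95% intervals of the limma fit. The interval of Tgm1 lies above 0 in the first 3 panels, from 0.31 to 0.83 on average, and every interval in the last panel spans 0.

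The RA responses of the 6 genes did not differ between the hairpins past the threshold, where 0% of all genes passed. This comparison is built from the RA changes of both constructs, which the choice of genes had in view. For Tgm3 the response in shLOXL2 minus that in shCT was -0.28 ± 0.27, with a 95% interval from -0.86 to 0.30. For Tgm2 it was -0.21 ± 0.28 (-0.81 to 0.39) and for Tgm1 0.03 ± 0.24 (-0.49 to 0.55). Tgm4, Tgm5 and Tgm6 lay between -0.29 and -0.19. The limma adjusted p was 0.9999 for each of the 6, and the smallest unadjusted p was 0.13 for Tgm6, so 0 of the 6 genes had an unadjusted p under 0.05, against 2.94% of all genes. Each of the 6 intervals reached at least 0.55 log2 units away from 0.

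Tgm1 and Tgm3 moved together from array to array within groups. Over the 12 arrays their deviations from the group means correlated at r = 0.829, the highest among pairs of the 6 genes. Next came Tgm1 and Tgm4 at 0.629 and Tgm2 and Tgm3 at 0.596. Those of Tgm1 and Tgm2 correlated at 0.348 and those of Tgm3 and Tgm6 at -0.382, and the lowest were Tgm4 and Tgm6 at -0.464. These are descriptions over arrays that share the axis of variation. The deviations followed that axis at r = -0.794 for Tgm1, -0.780 for Tgm3, -0.668 for Tgm2, -0.637 for Tgm4 and -0.587 for Tgm5, and at 0.331 for Tgm6. On each of the 4 arrays that stood apart, Tgm1 and Tgm3 were below their group mean. For Tgm3 the deviation on replicate 1 of shLOXL2 with RA was only -0.006. Replicate 2 of that group, which was not set apart, stood at -0.014. Without these 4 arrays the Tgm1 difference between the hairpins was 0.53 on average (limma adjusted p = 0.0678) and the Tgm3 difference 0.42 (adjusted p = 0.121). With the axis as a covariate the Tgm1 difference of 0.57 had an adjusted p of 0.00722 and that of Tgm3 one of 0.0517. The axis was built from the residuals of these same arrays, so it lowers the residual of genes that follow it by construction, and with it 136 genes passed on average, against 12. The RA change of Tgm3 without the 4 arrays was -2.18 in shLOXL2 and -1.85 in shCT. The list means of the primitive endoderm markers given above were lowest on replicate 3 of shCT in both RA states. They were highest on replicate 1 of shCT in both (7.24 with RA and 7.16 without RA), which is not among the 4 arrays. They spread more over the shCT arrays than over the shLOXL2 arrays. Surface ectoderm and keratinocyte markers had list means of 4.70 to 4.85 over the shLOXL2 arrays and 4.66 to 4.95 over the shCT arrays. The part of either in the Tgm1 difference was not tested.

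**Figure D3:**
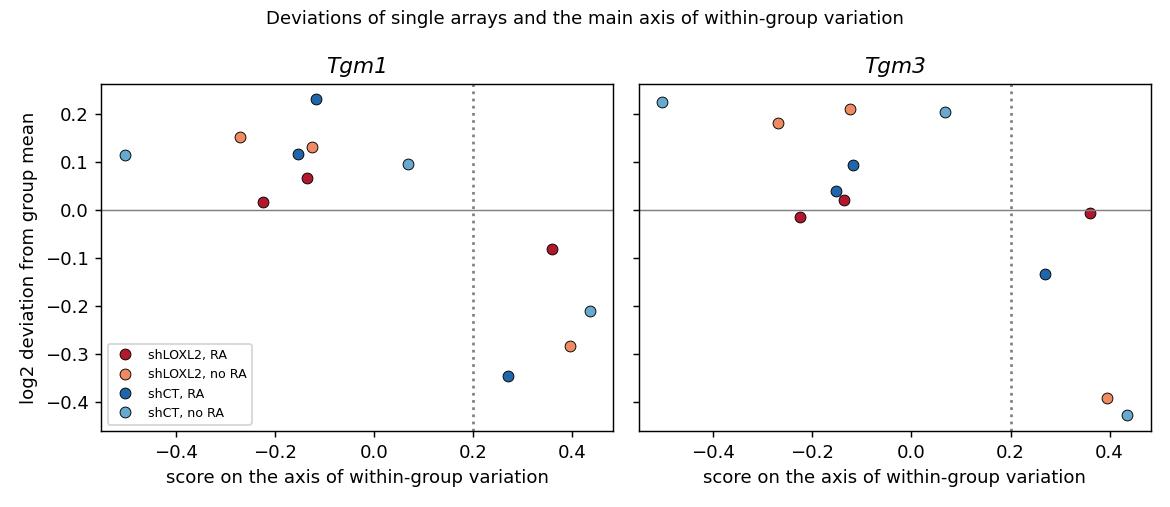
Deviation of each array's log2 signal from its group mean (y axis) for Tgm1 and Tgm3, against the score of the array on the main axis of within-group variation (x axis, no unit), coloured by group, with the 4 arrays that stood apart to the right of the dotted line at 0.2. The deviations to the right of the line are all below 0 for both genes, though that of Tgm3 on replicate 1 of shLOXL2 with RA is only -0.006.

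The genes whose log2 signal followed Tgm3 most closely over the 12 arrays, leaving out predicted and numbered symbols, were Hsd17b14, a steroid dehydrogenase (r = 0.987), Gid8, a subunit of the CTLH ubiquitin ligase (0.980), Agtrap (0.977), Zfp819 (0.974) and Exoc3l (0.972). They share the RA difference that Tgm3 was chosen for, and within groups their r with Tgm3 was lower, from 0.531 for Exoc3l to 0.876 for Hsd17b14. In all, 227 genes had an r above 0.9 with Tgm3. For Tgm2 there were 10 such genes, led by Pcdhb22, a protocadherin (0.947), Tmem45b (0.947), Lrrc75a (0.926), Pgpep1, a pyroglutamyl peptidase (0.918), and Zfp395 (0.916). Their r with Tgm2 within groups was 0.857 to 0.926, so the likeness to Tgm2 lay mostly in the spread between arrays of 1 group.

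The transglutaminase genes lie on chromosomes 2, 9 and 14, with Tgm3 and Tgm6 side by side and Tgm5 beside Tgm7 and Epb42 on chromosome 2, in the RefSeq gene table for GRCm38.p6. The nearest named protein-coding genes with a value, 2 on each side of every gene, gave 20 genes besides the 6. None of the 20 passed the limma threshold for RA in either construct (3.46% of all genes passed in shLOXL2 and 4.25% in shCT). Their RA changes ran from -0.41 to 0.30 in shLOXL2 and from -0.39 to 0.20 in shCT. Their median was -0.09 in shLOXL2 and -0.04 in shCT, against -0.01 and 0.00 over all genes. Around Tgm3, the opioid precursor gene Pdyn differed by -0.27 ± 0.15 in shLOXL2 and -0.03 ± 0.15 in shCT, and Snrpb, a core protein of the spliceosome, by -0.22 ± 0.13 and -0.21 ± 0.13. Sirpa, the receptor for CD47, stood at 0.16 ± 0.17 and 0.17 ± 0.17. No neighbour came near the change of Tgm3 in size. With the replicate number as a block within constructs, which the check of the array numbers allowed in shLOXL2 alone, none of the 20 passed in shLOXL2 either (1624 of all genes passed, or 7.32%, against 768 without the block). None of the 20 passed for the hairpins on average either, where their differences ran from -0.18 to 0.21. The genes nearest to Tgm1, Tinf2 of the telomere shelterin complex (0.10 ± 0.09) and Rabggta, a subunit of Rab prenyltransferase (0.10 ± 0.12), differed less than Tgm1.

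The rest of the family was low on these arrays. Tgm7, F13a1, which encodes the catalytic chain of the clotting factor that crosslinks fibrin, and Epb42, a red cell membrane protein that lacks the enzyme activity, all had means below the array medians. None of the 3 passed the limma threshold in any comparison. The RA difference of Tgm7 was -0.36 ± 0.20 in shLOXL2 and 0.08 ± 0.20 in shCT, that of F13a1 was -0.17 ± 0.14 and 0.25 ± 0.14, and that of Epb42 was 0.09 ± 0.16 and -0.01 ± 0.16.

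Retinoic acid targets gave the scale of the RA response in the same arrays. Of 14 listed targets 11 were measured, and all 11 rose in both constructs (limma adjusted p under 0.05). Past that threshold 2.05% of all genes rose in shLOXL2 and 2.16% in shCT. The median change of the 11 targets was 2.24 in shLOXL2 and 2.35 in shCT. Stra8, a gatekeeper of meiosis, rose by 4.88 ± 0.15 in shLOXL2 and 5.29 ± 0.15 in shCT, and Cyp26a1, which degrades retinoic acid, by 4.29 ± 0.16 and 4.09 ± 0.16 (limma adjusted p at most 1.09e-08). Rarb, a retinoic acid receptor and target, rose by 1.78 ± 0.14 in shLOXL2 and 1.67 ± 0.14 in shCT (adjusted p at most 1.12e-05). The smallest rise of the list, that of Cyp26b1 (0.63 ± 0.15 in shLOXL2 and 0.59 ± 0.15 in shCT, adjusted p = 0.0383 and 0.0458), stood beside 0.28 ± 0.20 and 0.49 ± 0.20 for Tgm2, and lay within the errors of Tgm2 in shCT.

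Most genes on the lists of transglutaminase partners and substrates did not pass for RA. Over all genes 3.46% passed in shLOXL2 and 4.25% in shCT. These lists are small and had no set test. Of 13 measured binding partners and matrix substrates of transglutaminase 2, Lrp1, an endocytic receptor for the enzyme, rose in both constructs (0.77 ± 0.13 in shLOXL2 and 0.60 ± 0.13 in shCT, adjusted p = 0.00298 and 0.0153). Nid1, a basement membrane linker, fell in both (-0.61 ± 0.12 and -0.60 ± 0.12, adjusted p = 0.00974 and 0.0108). The other 11 did not pass in either construct (Igfbp3, which binds insulin-like growth factors, passed in shLOXL2 with the replicate block, at 0.55 and an adjusted p of 0.0174), and the list median was 0.24 in shLOXL2 and 0.16 in shCT. Of 15 measured cornified envelope proteins, Dsp, the desmosomal linker, rose by 0.95 ± 0.16 in shLOXL2 and 1.22 ± 0.16 in shCT (adjusted p = 0.00441 and 0.000623). Tchh, the hair protein trichohyalin, rose by 0.69 ± 0.16 and 0.64 ± 0.16 (adjusted p = 0.0251 and 0.0338), and S100a10 fell by 0.66 ± 0.14 and 0.71 ± 0.14 (adjusted p = 0.0183 and 0.0108). The remaining 12 did not pass (the plakin Ppl passed in shLOXL2 with the replicate block, at 0.58 and an adjusted p of 0.0424), and 8 of the 15, Ivl and Flg among them, had means below the array medians. Among 6 measured genes of polyamine metabolism, Sat1, which acetylates polyamines, fell in shCT (-0.85 ± 0.16, adjusted p = 0.00649) and the other 5 did not pass. In shLOXL2 none of these 6 passed, and Sat1 stood at -0.30 ± 0.16 (adjusted p = 0.415). Srm, the spermidine synthase gene, passed in shLOXL2 with the replicate block, at -0.51 and an adjusted p of 0.0193. With that block 7.32% of all genes passed in shLOXL2 and 8.12% in shCT, where the arrays of replicate 2 fell short of the check of pairing. In shCT it let Srm (-0.57, adjusted p = 0.0106), Ppl (0.62, adjusted p = 0.0289), Igfbp3 (0.46, adjusted p = 0.0363) and Adgrg1, an adhesion receptor (-0.52, adjusted p = 0.0376), pass. None of these genes, nor any retinoic acid target, passed for the hairpins or for the difference of the RA responses.

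**Figure D4:**
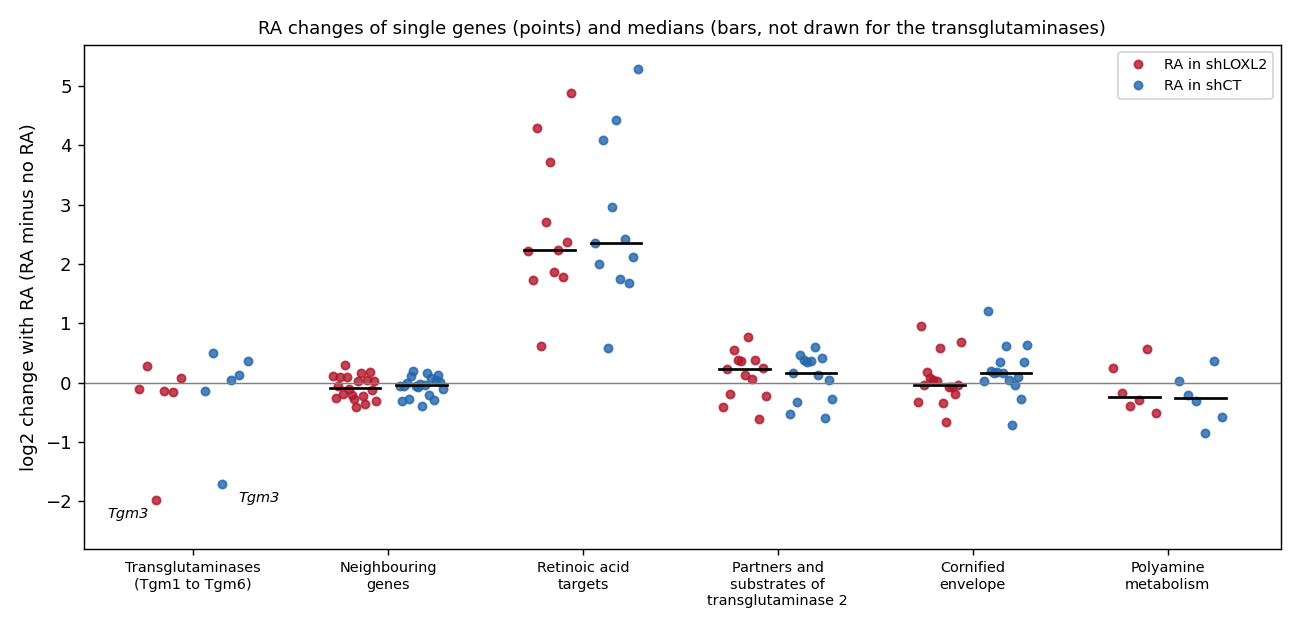
Log2 change with RA (y axis, RA minus no RA) of single genes in shLOXL2 (red) and shCT (blue), for the 6 transglutaminases, their 20 neighbours and 4 gene lists (x axis), with a black bar for the median of each group except the transglutaminases. Tgm3, at -1.99 in shLOXL2 and -1.71 in shCT, lies below every other gene shown, and the retinoic acid targets lie at 0.59 or more.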

How the data were processed

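The authors deposited 1 table of log2 signals with a value for each transcript cluster and array. The submitters' processing notes list RMA, limma and R 3.1.1 without saying which did what. Scanner files were not used here, and a shift common to most genes would be lost if arrays were normalized to each other. Of 41345 clusters, 23521 had 1 gene, 1814 several and 16010 were unnamed here. The brightest cluster stood for a gene, which gave 22180 genes. Symbols were updated through RefSeq gene identifiers (23328 matched).

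One limma fit (limma 3.58.1, R 4.3.3, statmod 1.5.0) over all 12 arrays had 1 mean per group, with Benjamini-Hochberg adjustment over all genes and a threshold of 0.05. Errors are standard errors of this fit unless called SD, with n = 3 arrays per group. On simulated data with independent noise for each gene and array, the fit was checked to return planted changes on average. The simulation held neither the axis nor the shared deviations of same-numbered arrays, so error rates here are not read from it. Members and lists were chosen with earlier results of these data known. The genes named are the family, the 2 nearest named genes on each side, the 5 genes most correlated with Tgm2 and with Tgm3, and up to 4 list members that passed. Rarb, Cyp26b1, Igfbp3, Ppl, Srm, Adgrg1, Nanog and the surface ectoderm, keratinocyte and fibroblast markers were named after their values were seen. The lists had no set test. Deviations of same-numbered arrays with and without RA correlated at 0.558, 0.248 and 0.216 in shLOXL2 and at 0.363, 0.0394 and 0.631 in shCT, and across hairpins at -0.548 to 0.197. These numbers are taken from the sample labels, where nothing is said of shared cultures. Every pair passed 0.1 within shLOXL2 only, since replicate 2 of shCT stood at 0.0394. List genes whose call the block changed are printed for both constructs, with this limit for shCT. The cut of 0.2 on the axis that sets 4 arrays apart was chosen after seeing the scores and was applied only at the upper end.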

Additional observations from a re-analysis of the deposited data

How the results depend on the processing

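Of 23 alternatives, 9 can move the RA change of a gene in 1 construct, 6 of them by leaving out 1 array. As a description, that of Tgm3 ran from -2.18 to -1.88 in shLOXL2 and from -1.92 to -1.59 in shCT over these 9. That of Tgm2 ran from 0.10 to 0.41 in shLOXL2 and from 0.27 to 0.64 in shCT. Over 22 alternatives, 15 of which moved the value, the Tgm1 difference between the hairpins on average lay between 0.49 and 0.65, and its adjusted p between 0.00722 and 0.441. It passed the threshold under 1 of them, the axis as a covariate (0.57), which lowers the residual of genes that follow the axis by construction. The Tgm3 difference lay between 0.35 and 0.55 and passed under none (adjusted p 0.0517 to 0.904). The average difference of Tgm2 changed sign under 5 of 22. Tgm4 and Tgm6 were not tested when genes below the median level were left out.

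Counts of all genes past the threshold moved as well, for RA and for the hairpins on average. For RA, a fixed replicate block within constructs gave 1624 genes in shLOXL2 and 1800 in shCT, against 768 and 943, a random one 1675 and 2047, and the axis as a covariate 2212 and 2474. With 1 array left out the counts ran from 444 to 916 in shLOXL2 and from 483 to 1049 in shCT. In shLOXL2 they were 461 and 488 without replicates 2 and 3 without RA, and 511 and 444 without replicates 2 and 3 with RA. In shCT they were 483 without replicate 2 without RA, and 512, 555 and 561 without replicates 1, 2 and 3 with RA. For the hairpins on average, 12 genes passed. The count was 1 with the replicate block over all groups, 0 with the random block within constructs, 22 with a variance trend, 27 without genes below the median level, 1 over all clusters, 136 with the axis as a covariate, 37 without the 4 arrays and 0 to 19 with 1 array left out. It was 19 without replicate 1 of shLOXL2 without RA, and 0 without replicate 2 or 3 of shLOXL2 in either RA state or any replicate of shCT with RA. With the axis as a covariate 9 genes passed with RA and 22 without RA, against 0 each. The count for the difference of the RA responses was 0 under all 23 alternatives, with 652 genes at an unadjusted p under 0.05 in limma. A second quantile normalization turned the share of upward calls for the hairpins on average to 43.8% of 16, against 66.7% of 12. The causes were not tested. With the random block the adjusted p of Tgm1 was 0.388. For the hairpins and for the difference of the RA responses, blocks changed no call of a transglutaminase gene. The RA changes of these genes had no calls that a block could change. The fixed block within constructs was not fitted for the hairpins.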
